A study of Mustela putorius furo with 2 samples.

Results

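Endothelial cells of the newborn ferret cortex were taken as the cells with at least 2 unique molecular identifiers (UMIs, each counting 1 captured RNA molecule) of CLDN5, the main claudin of brain endothelial tight junctions. By this rule 592 of 14787 cells (4.0%) were endothelial, and they are called gated cells below. The cells were selected on their own CLDN5 count, so CLDN5 is not a result, whereas no other gene entered the choice. The study profiled the dorsal cortex of wild-type ferrets at postnatal day 3 as 2 replicates of 1 group, with no treatment and no other genotype. Tissue was dissociated with papain, a protease, and single cells were captured on the 10x Genomics droplet platform. The 2 barcode suffixes of the deposited matrix were taken as the 2 libraries, called A and B, and the labels do not say which replicate is which or whether they are separate animals. The p-values below therefore measure only the spread between these samples, which may be technical.

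Brain endothelial cells line the vessels and form the blood-brain barrier: tight junctions close the gaps between cells, few vesicles cross the wall, and transporters carry sugar, amino acids and lipids from blood to brain. Barrier genes are switched on in brain vessels by Wnt and Norrin signals acting through FZD4 and beta-catenin. Vessels grow into the newborn cortex by sprouting, led by tip cells under VEGF and Notch control, and they recruit pericytes through PDGFB.

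The label was checked against 14 endothelial markers other than CLDN5 (PECAM1, CDH5, FLT1, KDR, TEK, TIE1, ESAM, EGFL7, ERG, SOX17, SOX18, EMCN, CD34 and VWF). Gated cells held RNA of a median of 5 of the 14 in each library, against 0 in all other cells. At least 3 were found in 112 of 143 gated cells of library A (78.3%, exact binomial 95% interval 70.7 to 84.8) and in 385 of 449 of library B (85.7%, 82.2 to 88.8). Among the other cells the shares were 0.270% and 1.12%. The intervals here and below cover counting error only.

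The lowest counts inside the gate carried mixed RNA. Just outside it, at 1 CLDN5 UMI, 12.1% of cells in library A and 23.1% in library B held at least 3 of the 14 markers, and just inside it, at 2 UMIs, 45.5% and 66.7% did. At 10 or more UMIs the shares were 100% and 97.9%. The summed level of 10 neuron genes in library A was 3806 CPM (UMIs of the genes per 1000000 UMIs of the cells) at 2 CLDN5 UMIs and 3853 at 3, beside 2419 in cells without CLDN5 and 397 at 10 or more. The excess at 2 and 3 UMIs rested on the 5 cells of cluster 12, described with the clusters at the end: without the 3 of them with 2 UMIs and the 2 with 3 UMIs, the sums were 1256 and 1844, both below 2419. In library B the same sum was 1593 at 2 UMIs, below the 2321 of cells without CLDN5, and 377 at 10 or more. FABP7, a fatty acid binding protein of glia, was at 10045 CPM at 2 CLDN5 UMIs and 1107 at 10 or more in library A, and at 8569 and 1578 in library B. Neuronal and glial RNA was thus present in every bin of the gate and lowest in the cells richest in CLDN5. The part of these sources in the results was not tested, beyond the counts given with such cells left out.

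**Figure D1:**
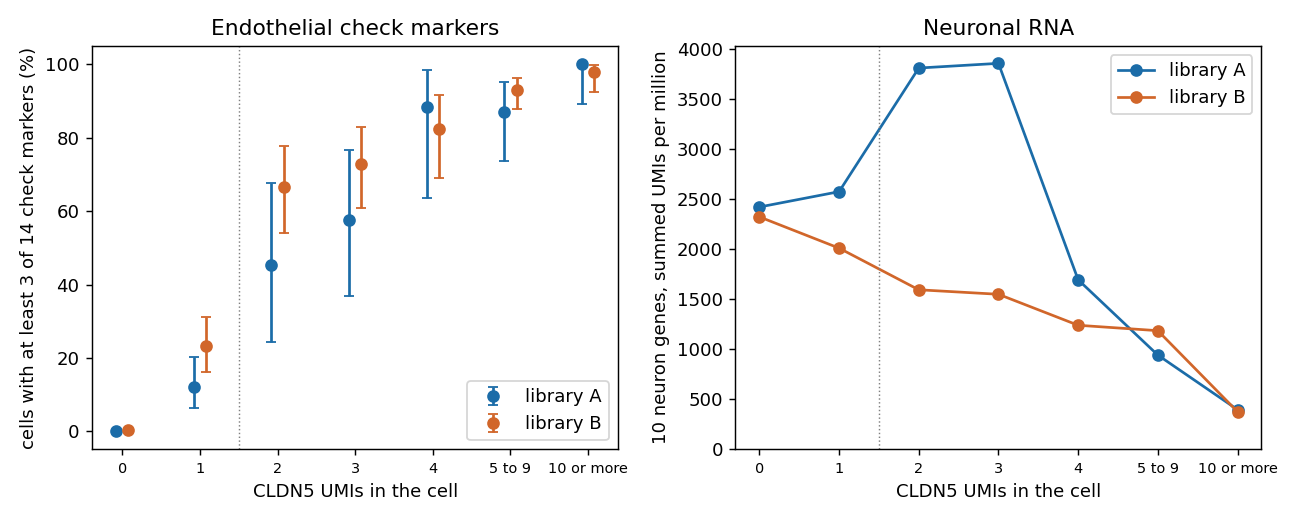
Left, the percentage of cells with at least 3 of the 14 endothelial check markers (y axis) by the number of CLDN5 UMIs in the cell (x axis), with exact 95% intervals, and right, the summed level of 10 neuron genes in CPM, both by library. The dotted line marks the gate: the share of cells with check markers was 12.1% and 23.1% at 1 UMI and at least 97.9% at 10 or more, and neuronal RNA in library A was highest at 2 and 3 UMIs, at 3806 and 3853 CPM, or 1256 and 1844 without the 5 cells of cluster 12.

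RNA of mural cells, the pericytes and smooth muscle that wrap vessels, was also found inside the gate. At least 3 of the 20 measured mural and fibroblast markers were present in 41 gated cells of library A (28.7%) and 199 of library B (44.3%), against 0.975% and 1.21% of the other cells. Gated cells with such RNA did not hold less endothelial RNA: the 14 check markers summed to 4070 and 3791 CPM in them, against 2893 and 3188 in the remaining gated cells. Scrublet called 1 doublet among all cells of library A and 0 in library B, too few for the caller to have worked, so no cell was removed, and a doublet score over 0.2 was found in 1 and 8 gated cells. The libraries shared 21 barcode sequences, and 2 gated cells of each library carried one.

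Gated cells were shallower than the rest. Their median was 2582 UMIs in library A and 2049 in library B, against 3616 and 3178 in the other cells, and no cell in the matrix had fewer than 1501. Their mitochondrial share had a median of 2.60% and 3.86%, against 1.19% and 1.39%. Summed over cells, the gated cells gave 509169 and 1134802 UMIs and the other cells 41327306 and 17772338.

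The libraries differed in how many cells the gate took. It held 143 of 9782 cells in library A (1.46%, exact 95% interval 1.23 to 1.72) and 449 of 5005 in library B (8.97%, 8.19 to 9.80). When every cell was first thinned to 1500 UMIs, the shares were 1.20% and 8.05%, so the difference stood at equal depth. With 1 library on each side there is no replicate of this difference and no test of it.

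Against all other cells of the same library, 15259 genes were tested with edgeR's quasi-likelihood test on the 4 sums of counts, with the library as a block. At a Benjamini-Hochberg adjusted p under 0.05, 2802 genes were higher in gated cells (18.4% of those tested) and 2227 were lower (14.6%), and in 4995 of these both libraries moved the same way. Directions and folds within a library were taken with a fraction of a UMI added to each sum. With very few gated UMIs they can rest on that addition. The higher genes made up 55.7% of the calls, and with DESeq2 (1793 higher, 787 lower) 69.5%. Without the gated cells that held at least 3 mural or fibroblast markers, 1724 were higher and 1230 lower, with fewer cells in the sums. Changes of more than 16-fold were mostly increases, in 438 genes against 49 decreases. Genes near 0 outside the gate entered this fit through their gated counts, so that imbalance is not read as a result. All adjusted p-values below come from this edgeR fit, the median log2 fold change over all genes tested was -0.06, and levels are CPM in library A and then library B.

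The 15 largest increases, by a rule given with the processing, included many genes known from vessels. CA4, a carbonic anhydrase on the luminal face of brain capillaries, was at 108 and 105 in gated cells and at 0.0242 and 0.506 in the other cells, where library A held 1 UMI (log2 fold change 9.14, SE 0.37, adjusted p = 3.1e-68). GJA4, the arterial gap junction protein connexin 37, was at 88.4 and 193 against 0.218 and 0.450 (8.71, SE 0.30, adjusted p = 1.9e-82). Both were near 0 outside the gate in both libraries. SOX17, a transcription factor of arterial and barrier endothelium, was at 118 and 98.7 against 0.290 and 0.281 (8.58, SE 0.35). SLC38A5, a glutamine transporter, was at 446 and 526 against 0.798 and 2.36 (8.48, SE 0.17), and PECAM1, the adhesion molecule CD31, at 528 and 545 against 1.04 and 2.76 (8.35, SE 0.17). CDH5, VE-cadherin, the adherens junction protein of endothelium, was at 216 and 216 against 0.411 and 1.18 (8.31, SE 0.23).

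The rest of that set ranged from 8.04 to 8.67 on the log2 scale. They were SHE, the prostaglandin transporter SLCO2A1, BTNL9, the transcription factor TBX1, LYZ, SRARP, GPIHBP1, the organic anion transporter SLCO1A2 and LOC123390059. LYZ, lysozyme, usually a gene of myeloid cells and secretory epithelium, was at 304 and 404 in gated cells and 0.798 and 2.08 in the others (8.11, SE 0.19). GPIHBP1, which anchors lipoprotein lipase on capillary endothelium, was at 78.6 and 82.8 against 0.121 and 0.619 (8.06, SE 0.40), and TBX1 at 62.8 and 65.2 against 0.121 and 0.394 (8.17, SE 0.45). PECAM1 shows how far single cells carried this signal: after thinning to 1500 UMIs a PECAM1 UMI was found in 45.5% and 47.4% of gated cells, and in 0.0488% and 0.112% of the neurons used to gauge free RNA (cells without CLDN5 and with at least 2 NEUROD2 or NEUROD6 UMIs, 4098 and 1785 of them, median 3465 and 3043 UMIs unthinned). Without thinning the shares were 59.4% and 59.9% of gated cells and 0.0976% and 0.168% of neurons.

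The 10 largest decreases included genes known from microglia, glia, progenitors and neurons. SPP1, osteopontin, a secreted protein of activated microglia, was at 11.8 and 19.4 in gated cells against 73.1 and 226 (-3.29, SE 0.24, adjusted p = 6.6e-32). APOE, the lipid carrier of glia, was at 68.7 and 99.6 against 306 and 481 (-2.18, SE 0.14). EOMES and NEUROG2, transcription factors of cortical intermediate progenitors, fell by 1.85 and 1.88 on the log2 scale. The other members were COL9A3, TMEM59L, the kainate receptor subunit GRIK3, FAM181B, the Wnt receptor FZD2 and the creatine kinase CKB, at -2.15 to -1.77. Among these TMEM59L was at -1.25 within library A and -2.62 within library B, and FZD2 at -3.47 within library A and -1.31 within library B. The rule asked for at least 50 CPM on the higher side in each library, so rarer genes could not enter either set.

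**Figure D2:**
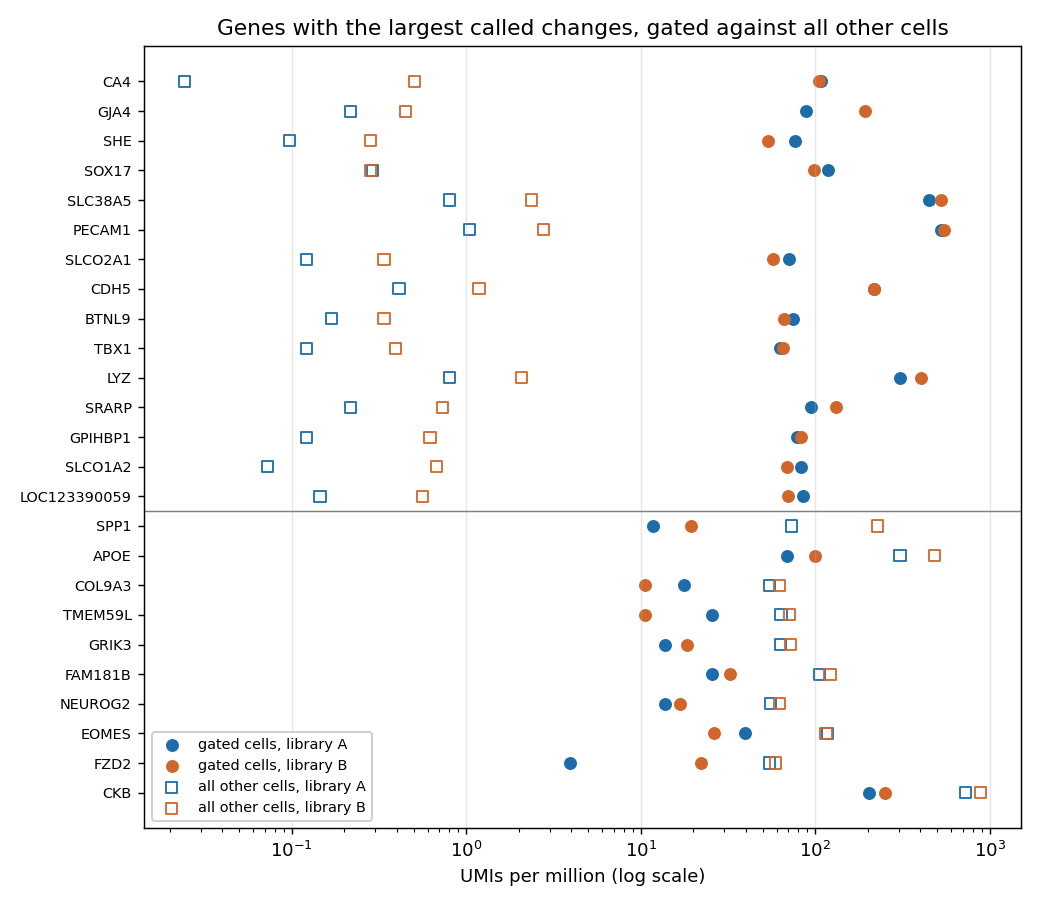
Levels of the 15 largest increases (above the line) and 10 largest decreases (below it) in CPM on a log axis, with filled circles for gated cells and open squares for all other cells, blue for library A and orange for library B. The 15 increased genes were at 2.76 CPM or less outside the gate in both libraries.

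All 25 pan-endothelial genes tested were higher in gated cells, with a median log2 fold change of 6.91 (background 18.4% higher). Members near 0 outside the gate, such as SOX17, entered the test through their gated counts. The same holds for the vessel gene lists below, so these counts, beside the 18.4%, are no check of the label. Besides PECAM1 and CDH5, the clotting factor carrier VWF was at 269 and 294 against 1.5 and 3.04 (7.08, SE 0.20), and the transcription factor SOX18 at 269 and 353 against 1.26 and 2.98 (7.34, SE 0.19). The smallest increase was that of PALMD, at 68.7 and 79.3 against 33.2 and 31.5 (1.27, SE 0.19). TAL1, a transcription factor of blood and vessel precursors, was low everywhere, at 1.96 and 11.5 against 1.09 and 1.13. It had 1 gated UMI in library A and a log2 fold change of 3.45 within library B. EGFL7, a secreted vessel protein, stood out for its level outside the gate, at 23.9 and 31.5 against 357 and 386 inside (3.80, SE 0.14).

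Of 14 tested junction genes other than CLDN5, 10 were higher and 0 lower, with a median of 1.13. Among transmembrane proteins, occludin (OCLN) was at 70.7 and 79.3 against 0.508 and 1.07 (6.68, SE 0.36, adjusted p = 6.4e-48), the junctional adhesion molecule F11R at 62.8 and 74.9 against 0.629 and 1.29 (6.26, SE 0.36) and the angulin LSR, a tricellular junction protein, at 86.4 and 106 against 1.33 and 1.69 (6.03, SE 0.28). CGNL1, paracingulin, was at 124 and 131 against 1.19 and 2.19 (6.33, SE 0.25). The adaptor TJP1 (ZO-1), present in many cell types, was at 159 and 191 against 42.4 and 40.5 (2.14, SE 0.16), and beta-catenin (CTNNB1) at 332 and 395 against 162 and 174 (1.16, SE 0.11). Not called were cingulin (CGN, -1.95, adjusted p = 0.27, at 0 and 0.881 against 2.98 and 2.19), MARVELD2 (0.62, adjusted p = 0.29), JAM3 (0.07, adjusted p = 0.8) and CLDN12 (-0.40, adjusted p = 0.7).

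Of 22 tested barrier transport genes 18 were higher and 0 lower, with a median of 4.14. The glucose transporter SLC2A1 (GLUT1) was at 448 and 403 in gated cells and 11 and 13.6 in the others (5.16, SE 0.14, adjusted p = 1.9e-102). The efflux pump ABCB1 (P-glycoprotein) was at 275 and 286 against 1.04 and 2.14 (7.60, SE 0.21), and ABCG2, another efflux pump, at 169 and 170.1 against 5.11 and 7.20 (4.83, SE 0.19). MFSD2A, which takes up docosahexaenoic acid lipids and restrains vesicle transport, was at 324 and 284 against 3.56 and 5.96 (6.08, SE 0.18). Both chains of the large neutral amino acid carrier were among them: SLC7A5 was at 984 and 988 against 17.0 and 21.2 (5.74, SE 0.12) and its partner SLC3A2 at 1212 and 1317 against 79.6 and 99.0 (3.87, SE 0.10). The transferrin receptor TFRC was at 322 and 423 against 22.5 and 22.4 (4.10, SE 0.14), the vitamin A carrier STRA6 at 70.7 and 65.2 against 0.581 and 0.788 (6.70, SE 0.38) and the thiamine carrier SLC19A3 at 27.5 and 12.3 against 0.0726 and 0.225 (7.29, SE 0.73). In each of these genes both libraries moved in the same direction.

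The transport genes not called were SLCO1C1, the thyroid hormone transporter, at 5.89 and 1.76 against 4.50 and 5.51 (-0.67, adjusted p = 0.51), the lipoprotein receptors LRP1 (-0.31, adjusted p = 0.27) and LRP8 (-0.38, adjusted p = 0.098) and the vitamin carrier SLC5A6 (-1.09, adjusted p = 0.2).

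Of 20 Wnt and Norrin genes 17 were higher and 0 lower, with a median of 3.37. Among receptors, FZD4, which binds Norrin, was at 23.6 and 18.5 against 0.532 and 0.563 (5.29, SE 0.56, adjusted p = 2.9e-17), FZD6 at 137 and 153 against 26.7 and 26.3 (2.51, SE 0.17) and the co-receptor LRP5 at 41.2 and 37.9 against 15.7 and 16 (1.36, SE 0.26). ADGRA2 (GPR124), the WNT7 co-activator of brain vessels, was at 66.8 and 78.4 against 2.71 and 2.48 (4.85, SE 0.29), whereas its partner RECK was not called (0.76, adjusted p = 0.051). TSPAN12, the Norrin co-receptor, was higher at 0.94, with 0.47 within library A and 1.22 within library B. The co-receptor LRP6 (0.26, adjusted p = 0.19) and TNFRSF19 (-0.21, adjusted p = 0.67) were not called.

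Transcription factors and targets of the pathway were higher as well. LEF1, which carries beta-catenin to DNA, was at 157 and 176 against 1.57 and 2.98 (6.29, SE 0.21). The feedback inhibitors APCDD1, at 619 and 654 against 28.3 and 30.2 (4.49, SE 0.12), NKD1 (5.23, SE 0.35) and AXIN2 (1.55, SE 0.35) were called too. The barrier transcription factors FOXF2, at 60.9 and 110.2 against 0.968 and 1.07 (6.36, SE 0.32), and FOXQ1 (7.35, SE 0.27) were called higher as well. FOXF2 is also a gene of pericytes.

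Of 15 VEGF and angiopoietin genes 11 were higher and 1 was lower, with a median of 3.78. The receptors on the list were all higher, and KDR (VEGFR2), the main signalling receptor for VEGF, was at 283 and 293 against 1.28 and 2.53 (7.37, SE 0.20, adjusted p = 4.8e-104), FLT1 (VEGFR1), a decoy for VEGF, at 365 and 355 against 3.65 and 5.85 (6.33, SE 0.17), TEK (TIE2) at 60.9 and 89.0 against 0.871 and 1.01 (6.32, SE 0.34) and TIE1 at 134 and 142 against 0.653 and 1.24 (7.30, SE 0.27). PTPRB, the phosphatase that holds TIE2 in check, was at 389 and 397 against 3.41 and 4.0 (6.78, SE 0.16). Among ligands, ANGPT2, the TIE2 ligand of remodelling vessels, was at 80.5 and 78.4 against 27.2 and 26.8 (1.60, SE 0.19). VEGFB fell by 1.26 (adjusted p = 2.3e-07), and VEGFA (-0.18, adjusted p = 0.79), VEGFC (0.51, adjusted p = 0.11) and ANGPT1 (-0.59, adjusted p = 0.13) were not called.

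Of 11 Notch genes 8 were higher and 0 lower, with a median of 1.26. The endothelial receptor NOTCH4 was at 53.0 and 63.4 against 2.18 and 2.98 (4.54, SE 0.32, adjusted p = 2.9e-33), the tip cell ligand DLL4 at 29.5 and 42.3 against 0.992 and 1.52 (4.88, SE 0.42) and JAG1 at 66.8 and 116 against 7.91 and 8.16 (3.57, SE 0.22). The target HES1 was at 151 and 159 against 63.8 and 70.1 (1.26, SE 0.15). NOTCH1, which neural progenitors also use, was at 74.6 and 62.6 against 68.0 and 67.3 and was not called (0.04, adjusted p = 0.89), nor were the common partner RBPJ (-0.35, adjusted p = 0.055) and the modifier LFNG (0.09, adjusted p = 0.83).

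Of 18 genes of BMP and TGF-beta signalling and of flow sensing 15 were higher and 0 lower, with a median of 2.94. The co-receptor ENG (endoglin) was at 183 and 161 against 1.57 and 2.42 (6.52, SE 0.22, adjusted p = 3.3e-86) and its receptor partner ACVRL1 (ALK1) at 90.3 and 97.8 against 0.460 and 0.731 (7.38, SE 0.34). Of the BMP target genes ID3 was at 269 and 347 against 3.27 and 7.99 (5.91, SE 0.17), ID1 at 229.8 and 264 against 92.3 and 112 (1.32, SE 0.13), and ID2 was not called (-0.25, adjusted p = 0.39, 0.29 within library A and -0.66 within library B). The flow-induced factor KLF2 was at 145 and 159 against 2.06 and 3.26 (5.91, SE 0.22) and the nitric oxide synthase NOS3 at 98.2 and 89.9 against 0.436 and 1.01 (7.18, SE 0.33). BMP6 (0.37, adjusted p = 0.84) and SMAD7 (0.64, adjusted p = 0.071) were not called.

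Of 14 genes by which vessels recruit mural cells or signal through apelin and chemokines 13 were higher and 0 lower, with a median of 5.17. PDGFB, the pericyte recruitment factor, was at 104 and 99.6 against 0.968 and 1.80 (6.30, SE 0.28, adjusted p = 1.2e-60) and PDGFD at 119.8 and 119.8 against 1.48 and 1.52 (6.36, SE 0.26), whereas PDGFA was not called (-0.48, adjusted p = 0.75). The apelin receptor APLNR was at 68.7 and 80.2 against 0.169 and 0.788 (7.54, SE 0.40) and its ligand APLN at 104 and 60.8 against 0.436 and 0.957 (7.04, SE 0.37). EDN1, endothelin, a vasoconstrictor, had 9 and 32 UMIs in gated cells and 0 and 2 in all other cells, too few outside the gate for a fold. IGFBP7, a secreted binding protein of vessels, was at 5633 and 6094 against 96.2 and 134 (5.73, SE 0.09). The chemokine receptor CXCR4 was at 58.9 and 123 against 52.8 and 52.7, with a log2 fold change of 0.19 within library A and 1.31 within library B.

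Of 18 basement membrane and matrix genes 17 were higher and 0 lower, with a median of 4.57, and LAMA5 was not called (0.45, adjusted p = 0.49). Collagen IV, the sheet of the vascular basement membrane, was represented by COL4A1 at 966 and 955 against 15.6 and 20.4 (5.80, SE 0.12), and fibronectin (FN1) was at 1082 and 1555 against 15.2 and 28.6 (5.99, SE 0.11). Mural cells make these proteins as well. All 9 caveola and vesicle genes were higher, with a median of 4.80. Caveolin 1 (CAV1) was at 169 and 199 against 0.557 and 1.74 (7.53, SE 0.23) and its coat protein CAVIN1 at 98.2 and 92.5 against 1.11 and 1.63 (6.19, SE 0.29).

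Of 8 leukocyte adhesion and immune genes 6 were higher, 1 was lower and CD47 was not called (-0.36, adjusted p = 0.11). B2M, the light chain of MHC class I, was at 668 and 770.2 against 134 and 174 (2.28, SE 0.10, adjusted p = 2.0e-61). TAP1 and PSMB8 are MHC class I loading genes. TAP1 was at 1.96 and 13.2 against 0.992 and 1.18. It had 1 gated UMI in library A and a log2 fold change of 3.58 within library B. PSMB8 was at 9.82 and 32.6 against 3.77 and 5.23, with 1.52 within library A and 2.73 within library B. VCAM1, an adhesion molecule of activated endothelium and of neural progenitors, was lower at -0.90 (-1.88 within library A and -0.53 within library B).

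**Figure D3:**
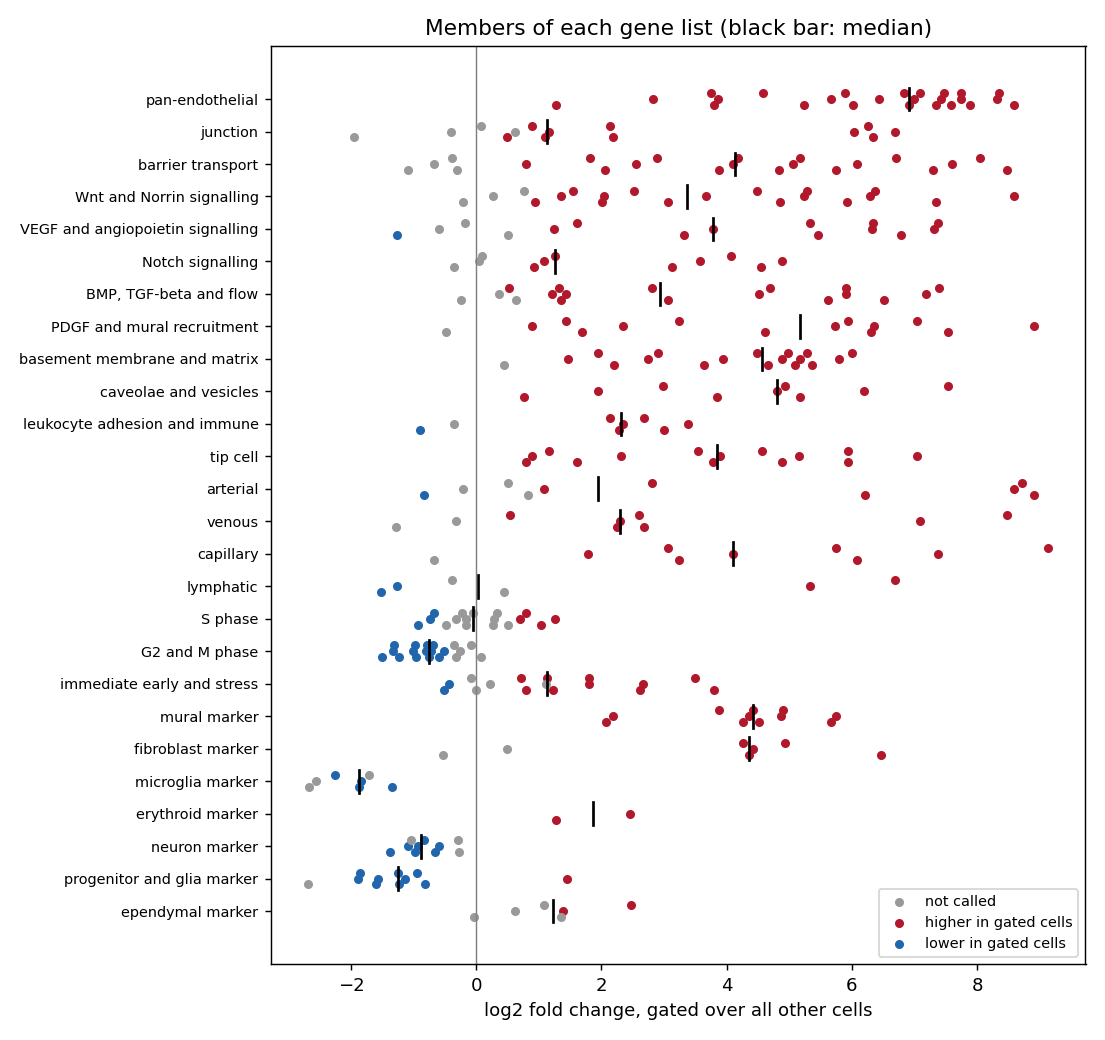
The log2 fold change of gated over all other cells (x axis) for each tested member of the 26 gene lists (y axis), red where higher, blue where lower and grey where not called at an adjusted p of 0.05, with the median as a black bar. The pan-endothelial median was at 6.91, the neuron median at -0.88 and the progenitor and glia median at -1.24, while mural markers were also to the right at 4.41.

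Genes that mark positions along the vessel tree were compared next. All 14 tip cell genes were higher, with a median of 3.84, as were 8 of 9 capillary genes (median 4.10) and 7 of 9 venous genes (median 2.29), with 0 lower in each. The venous transcription factor NR2F2 was at 58.9 and 70.5 against 15.8 and 12.7 (2.29, SE 0.22) and the venous receptor EPHB4 at 23.6 and 27.3 against 5.73 and 5.57 (2.24, SE 0.35). IL1R1, the interleukin 1 receptor, was at 5.89 and 25.6 against 2.83 and 2.98, with 1.28 within library A and 3.19 within library B. ACKR1 (-1.28, adjusted p = 0.56) and FLRT2 (-0.32, adjusted p = 0.24) were not called. SPOCK2, a matrix proteoglycan on the capillary list, was at 3.93 and 13.2 against 1.38 and 1.01, with 1.83 within library A and 3.79 within library B.

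Of 10 arterial genes 6 were higher, with a median of 1.95. Apart from GJA4 and SOX17, the secreted semaphorin SEMA3G was at 47.1 and 44.1 against 0.460 and 0.844 (6.21, SE 0.43, adjusted p = 2.4e-33). The ligand EFNB2, which neural cells also express, was at 106 and 114 against 140.0 and 128 and was not called (-0.21, adjusted p = 0.3), and CLDN10 (0.82, adjusted p = 0.076) was not called either. STMN2, foremost a gene of neurons though on the arterial list, was lower (-0.84), at -0.30 within library A and -1.36 within library B. Of 6 lymphatic genes the receptor FLT4 (5.33, SE 0.53) and MMRN1 (6.69, SE 0.88) were higher, whereas PROX1, the lymphatic master factor and a gene of neural cells, was at 5.89 and 13.2 against 30.9 and 24.8 (-1.26, -2.16 within library A and -0.78 within library B) and PDPN at 3.93 and 13.2 against 27.8 and 31.3 (-1.52, -2.49 within library A and -1.12 within library B), both lower. LYVE1 (0.44, adjusted p = 0.77) and RELN (-0.39, adjusted p = 0.49) were not called.

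GJA4 divided the gated cells differently in the libraries. After thinning to 1500 UMIs, 5.59% of gated cells in library A and 17.4% in library B held a GJA4 UMI (9.09% and 20.7% unthinned). Of the neurons 0.0976% did in library A and 0 of 1785 in library B, which by the limit of 3 counts allows a share of up to 0.168%. In library B the 93 gated cells with a GJA4 UMI had ALPL, an alkaline phosphatase of arterial and capillary endothelium, at 149 against 31.6 in the 356 without, and the capillary gene CA4 at 40.4 against 123. The smooth muscle actin ACTA2 was at 258 in the same cells against 21.4. In library A the 13 cells with a GJA4 UMI had ALPL at 206 against 29.1 in the other 130 and CA4 at 63.3 against 114. They had no ACTA2 UMI, against 26.9 CPM, and the limit of 3 counts allows them a level above that. These 13 cells were deeper, at a median of 3780 against 2418 UMIs. SOX17, also on the arterial list, was at 127 against 117 in library A and 137 against 87.9 in library B. MFSD2A, also on the capillary list, was higher in the cells with a GJA4 UMI, at 586 against 287 in library A and 372 against 259 in library B, so the capillary genes did not go one way. These are levels of single libraries with no test.

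Cell cycle genes gave no single answer. Of the 17 S phase genes 4 rose (23.5%) and 3 fell (17.6%), near the 18.4% and 14.6% of all genes tested. Their median was -0.05, and DESeq2 called 1 each way. MCM6, part of the replication helicase, was at 82.5 and 59.0 against 34.6 and 34.6 (1.03, SE 0.20, adjusted p = 3.3e-06), and RRM2, a subunit of ribonucleotide reductase, at 72.7 and 83.7 against 154 and 157 (-0.92, SE 0.16). Among the 19 genes of G2 and mitosis 14 fell and 0 rose (median -0.76). NUSAP1, a spindle protein, was at 39.3 and 46.7 against 130.2 and 129 (-1.51, SE 0.19), and TOP2A, a topoisomerase, at -0.76, with -1.29 within library A and -0.43 within library B. MKI67 (-0.26, adjusted p = 0.4), CDK1 (-0.09, adjusted p = 0.79), CCNA2 (-0.36, adjusted p = 0.24), PLK1 (0.08, adjusted p = 0.88) and AURKA (-0.33, adjusted p = 0.48) were not called. With every cell thinned to 1500 UMIs, so that deep cells no longer weighed more, 1 of the 19 was lower and the median was -0.12, and DESeq2 called 8. The share of thinned cells with at least 2 of the 19 genes went the other way, at 34.3% and 36.7% of gated and 12.9% and 16% of other cells (51.7% and 49.0% against 19.9% and 23.2% unthinned), so no order of division is read from either.

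Immediate early and stress genes, which dissociation can raise in any cell, were mostly higher: 10 of 16 rose and 2 fell, with a median of 1.12. Of all genes tested 18.4% rose and 14.6% fell. JUNB was at 236 and 379 against 41.8 and 57.6 (2.67, SE 0.14, adjusted p = 9.1e-52) and the small heat shock protein HSPB1 at 499 and 594 against 35.7 and 45.8 (3.79, SE 0.12). FOS, JUN, EGR1 and ATF3 were not called, and JUND and HSP90AA1 fell by 0.52 and 0.43. The part of dissociation in these changes was not tested.

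Markers of other cell types were measured in the same sums, in which 18.4% of all genes tested were higher and 14.6% lower. All 11 mural markers were higher, with a median of 4.41 and a summed level of 779.7 and 1031 CPM in gated cells against 57.5 and 66.5 in the others. RGS5, a pericyte gene, was at 206 and 250.3 against 6.82 and 8.95 (4.90, SE 0.18, adjusted p = 4.5e-77), and ACTA2 at 23.6 and 73.1 against 1.02 and 0.675 (5.74, SE 0.41). Without the gated cells with at least 3 mural or fibroblast markers, 6 of 11 were higher and the median was 2.50, a removal that used these genes. Of 7 fibroblast markers 5 were higher, among them FOXC1, also a gene of brain pericytes and endothelium, at 124 and 149 against 1.09 and 2.25 (6.46, SE 0.25). DCN (0.48, adjusted p = 0.58) and OGN (-0.52, adjusted p = 0.42) were not called.

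Neural RNA was lower in the gate but far from absent. Of 10 neuron markers 7 were lower and 0 higher (median -0.88), beside 14.6% lower and 18.4% higher of all genes tested. They summed to 1703 and 1016 against 2421 and 2313, and all 10 had UMIs in the gate. Without the 5 cells of cluster 12, all of library A, the gated sum there was 915, and 8 of the 10 were lower, in a fit chosen after seeing the data. DESeq2 called 4 of the 10 lower. Of 11 progenitor and glia markers 9 were lower and 1 was higher, beside the same shares of all genes tested. FABP7 was at 3969 and 4269 against 11715 and 13641 (-1.57, SE 0.07). The exception was HOPX, a homeodomain protein best known here from outer radial glia, at 493 and 566 against 186 and 216 (1.44, SE 0.10, adjusted p = 1.2e-31). It was higher in both libraries.

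Of 7 microglia markers 4 were lower and 0 higher, beside 14.6% lower of all genes tested. They summed to 37.3 and 53.8 against 119.9 and 199. Blood genes differed by library: HBM, a haemoglobin chain, was at 7.86 and 169 in gated cells against 73.5 and 26.4 in the others, which is -3.05 within library A and 2.76 within library B. ALAS2, the haem synthesis enzyme of red cells, was at 1.96 and 15 against 2.76 and 1.35, with 3.56 within library B. In library A it had 1 gated UMI, too few for a direction. Of 6 ependymal markers 2 were higher, beside 18.4% of all genes tested. These were the cilia genes CFAP43, at 0 and 12.3 against 0.992 and 1.63, and RSPH1, at 0 and 14.1 against 0.629 and 5.18. Both rested on library B, at 3.02 and 1.56 within it, as neither had a gated UMI in library A. DESeq2 called none of these 4 blood and cilia genes. Fewer cells of a type and less RNA per cell cannot be told apart in these sums.

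A second comparison set the 352 gated cells with fewer than 3 mural or fibroblast markers against 130 cells without CLDN5 and with at least 3 of those markers, 89 in library A and 41 in library B. The latter were meant as perivascular cells, but they held much glial RNA: FABP7 was at 20217 and 23987, beside 1783 and 2181 for the sum of 11 mural markers, so they are named here only by their rule. Of 7307 genes tested 946 were higher in gated cells (12.9%) and 856 lower (11.7%), with 240 and 152 by DESeq2. The mural and fibroblast markers themselves were left out, as the rule had used them. The marker-chosen cells were deeper, with medians of 5191 and 5416 UMIs, beside 2344 and 1920.5 in the gated cells used here.

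Genes that are low in the comparison cells entered this fit through their gated counts, so no count over the endothelial lists is given. PECAM1 was at 430.1 and 449 against 4.21 and 12.3 (5.93, SE 0.38, adjusted p = 4.4e-51) and SLC2A1 at 337 and 341 against 18.9 and 20.4 (4.13, SE 0.33). Some genes that were higher against all other cells were not called here. They included ADGRA2 (0.31, adjusted p = 0.67), FOXF2 (0.45, adjusted p = 0.45), LRP5, JAG1, ID1 and ANGPT2. HES1 was lower in the gate (-0.87, adjusted p = 0.0018), but DESeq2 called 0 of the 10 Notch genes lower. With thinned cells 1 of 5 Notch genes was lower. Others stayed higher, such as FZD6 (1.36, SE 0.34) and APCDD1 (3.25, SE 0.26). The 8 largest increases were LYZ, VWF, GPIHBP1, PIK3CG, BTNL9, LSR, LOC123394365 and NOS3, none of which had a UMI in the marker-chosen cells. Against a floor of 3 UMIs over both libraries (4.16 CPM), LYZ was at least 76.2-fold higher, VWF at least 65.8-fold and NOS3 at least 18.8-fold. Of 17 basement membrane genes 8 were higher and 1 was lower, with a median of 0.43, beside 12.9% and 11.7% of all genes tested. The count did not hold up: DESeq2 called 2 higher and 0 lower, and with thinned cells 2 of 14 were higher, with a median of -0.0074. FN1 was at 845 and 1215 against 715 and 1107 (0.22, adjusted p = 0.35). Neuron markers were among the higher genes too, 5 of the 7 that passed the filter, with the 5 cells of cluster 12 in the gated sum, and their part in the other increases was not tested.

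The 8 largest decreases in that comparison were LOC101694586, CCN4, IL34, PDLIM4, VCAM1, LOC101678067, GPR75 and the glial channel TTYH1, from -4.85 to -3.03, of which LOC101694586, CCN4, IL34 and PDLIM4 had 0 to 3 UMIs in the gated cells of each library. LOC101694586 had 0 and 3 there against 89 and 14 in the marker-chosen cells. APOA1, the main protein of high-density lipoprotein, named here after its values were seen, was at 1347 and 2074 in gated and 8234 and 9229 in marker-chosen cells (-2.34, SE 0.12, adjusted p = 5.2e-76). Against all other cells, with every gated cell counted, APOA1 was higher in the gate, at 3215 and 3854 against 122 and 158 (4.71, SE 0.09). Of its 1637 and 4373 gated UMIs, the cells with fewer than 3 mural or fibroblast markers held 448 and 1187. In cluster 7, led by pericyte genes and described at the end, APOA1 was at 10004 against 2752 in the rest of the gate. HOPX was not called between gated and marker-chosen cells, at 448 and 542 against 559 and 568 (-0.16, adjusted p = 0.62).

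The summed levels of abundant genes in gated cells were close in the 2 libraries. Each gene's gated level was divided by its level in the other cells of its library, and the 2 ratios were compared, with 5 CPM added to each level. Of 2208 genes with at least 100 CPM in gated cells of 1 library, 2183 (98.9%) had ratios within 2-fold of each other, 15 were further up in library A and 10 in library B. Rarer genes were outside this measure, and no share was taken for another pair of groups to set beside it. The make-up of the gate differed: cluster 2, described at the end, held 0.699% and 17.1% of gated cells, and cluster 5 held 29.4% and 4.90%. With 1 library a side there is no test, and the intervals that follow are exact 95% Poisson intervals of the counts.

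Blood genes led the genes further up in library B. HBM was at 7.86 (2.14 to 20.1) in gated cells of library A and 169 (146 to 195) in library B, and HBA1, haemoglobin alpha, at 17.7 (8.08 to 33.6) and 132 (112 to 155). Nearly all of this lay in cluster 4: without its cells HBM had 3 and 1 UMIs, and HBA1 0 and 9. GJA4 was the endothelial gene among the 8, at 88.4 (64.5 to 118) in library A and 193 (168 to 220.3) in library B. This order turned with mural RNA: GJA4 was at 39.6 and 318 in gated cells with at least 3 mural or fibroblast markers, and at 114 and 69.9 in the remaining gated cells. The rest were LOC101673656, LOC123389580, LOC101682893, LOC101679362 and GALNTL6.

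Neuronal genes led the genes further up in library A. For GRM5, GAP43, S100A10, OPCML, LMO4 and PCSK1N most library A UMIs came from the 5 cells of cluster 12. The glutamate receptor GRM5 was at 102 (76.3 to 134) in library A and 24.7 (16.4 to 35.7) in library B, and the growth cone protein GAP43 at 342 (293 to 396) and 115 (95.7 to 136). CCN2, connective tissue growth factor, which was near 0 in other cells at 2.20 and 2.59, was at 119.8 (91.6 to 154) and 43.2 (31.9 to 57.1). S100A10, annexin's partner, was at 377 (326 to 434) and 182 (158 to 209), and the remaining 4 were STMN4, OPCML, LMO4 and PCSK1N. The neuron markers summed to 1703 in gated cells of library A, beside 1016 in those of B. Without cluster 12, a choice made after seeing the data, that sum was 915 in library A, below library B. GRM5 was then at 11, GAP43 at 145 and S100A10 at 134 in library A, the last below the 182 of library B. OPCML was also lower in library A, at 30.8 against 44.9. LMO4 (198 and 181) and PCSK1N (119 and 108) were near equal, and STMN4 was at 101 against 59.0. In place of 15 genes, 3 were further up in library A by more than 2-fold. CCN2 stayed among them, at 134 against 43.2, but without cluster 5 it was at 46.2 and 44.7. Also without cluster 12, the ratio of GJA4 moved to within 2-fold, at 99.0 against 193, though its UMIs stayed at 45 and 219. Without cluster 5 it was at 113 and 200. Without cluster 4 its levels were further apart, at 50.7 and 217, with 24 of the 45 UMIs of library A left.

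**Figure D4:**
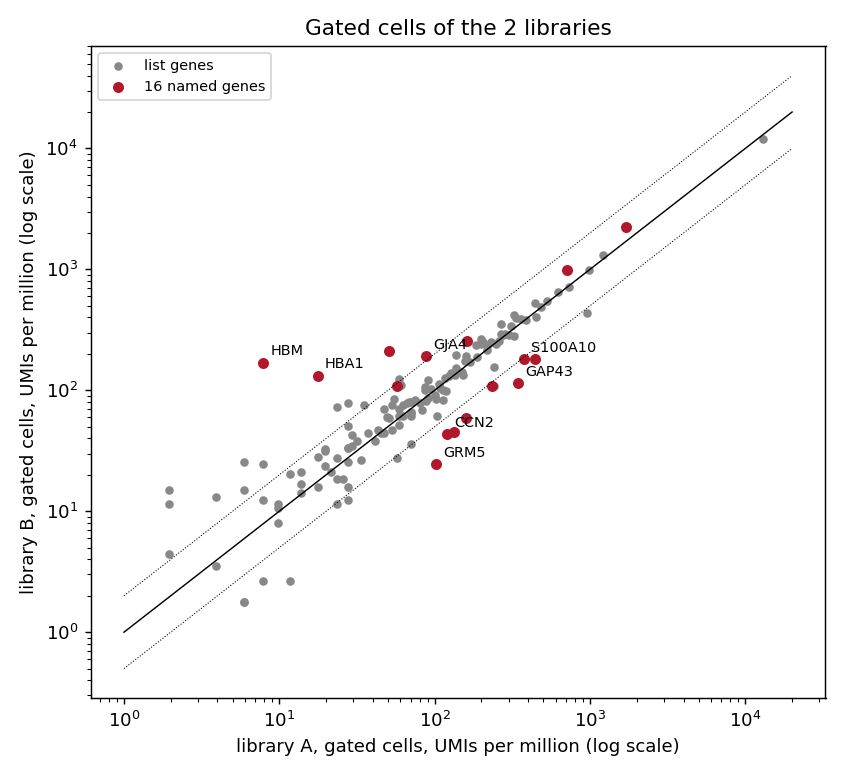
Levels in gated cells of library A (x axis) and library B (y axis), in CPM on log axes, for genes of 11 of the lists with a UMI in both (grey) and the 16 genes with the largest ratios of ratios (red). The solid line marks equal levels and the dotted lines 2-fold differences: of the red points, HBM at 7.86 and 169 lay farthest above, and GRM5 at 102 and 24.7 farthest below, the latter at 11 in library A without the 5 cells of cluster 12.

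Clustering the gated cells alone gave 12 clusters, described here by number with no test, since the genes that define them were used to make them. Cluster 2 held 1 cell of library A and 77 of library B and was led by FBLN5, IGFBP6, GJA4, ACTA2 and IGFBP3, arterial and smooth muscle genes. GJA4 was at 1016 in it and 57.9 in the rest of the gate, and 63 of its 78 cells held at least 3 mural or fibroblast markers. Cluster 7, with 6 and 48 cells, was led by the pericyte genes FOXS1, KCNJ8, RGS4, ABCC9 and RGS5, with RGS5 at 742 against 165. Its cells had a median of 7 of the 14 endothelial markers, and CA4 was also higher there, at 303 against 77.8.

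Clusters 5, 6 and 10 had medians of 5.5, 6 and 13 of the 14 check markers. Cluster 5 held 42 cells of library A (29.4% of its gated cells) and 22 of library B (4.90%), and was led by CCN2, at 269.7 against 45.1. In it 13 of 17 S phase genes were at least 1.5-fold above the rest of the gate, beside 14.3% of the 9444 genes with at least 20 gated UMIs. The same held for 10 of 17 in cluster 10 and 8 of 17 in cluster 9, beside 19.1% and 15% of those genes. Cluster 6 had 6 and 54 cells, with TIMP1 and STAB1, a scavenger receptor, among its leading genes. Cluster 10 had 5 and 11 cells, a median of 6894.5 UMIs and 36.5 CLDN5 UMIs, and was led by CXCL12, APLN, TGM2, KANK3 and PDGFB. In cluster 10, 18 of 25 pan-endothelial and 7 of 9 capillary genes were also that far above the rest, beside the same 19.1%, among them MFSD2A, SLC7A5, TFRC and KDR.

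The leading genes of the remaining clusters are known from other cell types. Even so, clusters 1, 3, 4, 8 and 9 had medians of 4, 4, 5, 5 and 3 of the 14 check markers. In the same order, the 25 pan-endothelial genes summed to 3083, 2742, 4503, 4152 and 3073 CPM in them. The rest of the gate was at 4714, 4707, 4518, 4542 and 4570. Cluster 4 (12 and 55 cells) was led by LOC123389580, LOC101682893, HBM and HBA1, with HBM at 1077 against 2.73. Cluster 8 (3 and 45 cells) was led by the cilia genes FAM183A, PPP1R32 and ROPN1L. In it 5 of 6 ependymal markers were at least 1.5-fold above the rest of the gate, beside 16.9% of the 9444 genes with at least 20 gated UMIs. Cluster 9 (0 and 30 cells) was led by LOC101676770, LOC101686814 and the microglia gene C1QC. The 0 of 143 cells of library A in cluster 9 allows a share of up to 2.10% by the limit of 3 counts, or 2.55% as the exact 95% upper bound. Clusters 1 and 3 (93 and 67 cells) were led by neuronal genes such as GRIA1, ADARB2 and SST, with 44.1% and 32.8% of their cells holding at least 2 UMIs of 6 neuronal and progenitor genes. Clusters 11 and 12 (10 and 5 cells) had medians of 1.5 and 1 of the 14 check markers and were led by glial TTYH1, CLU and SLC1A3 and by neuronal CXCL14, SYT4 and GRM5, against the endothelial label.

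**Figure D5:**
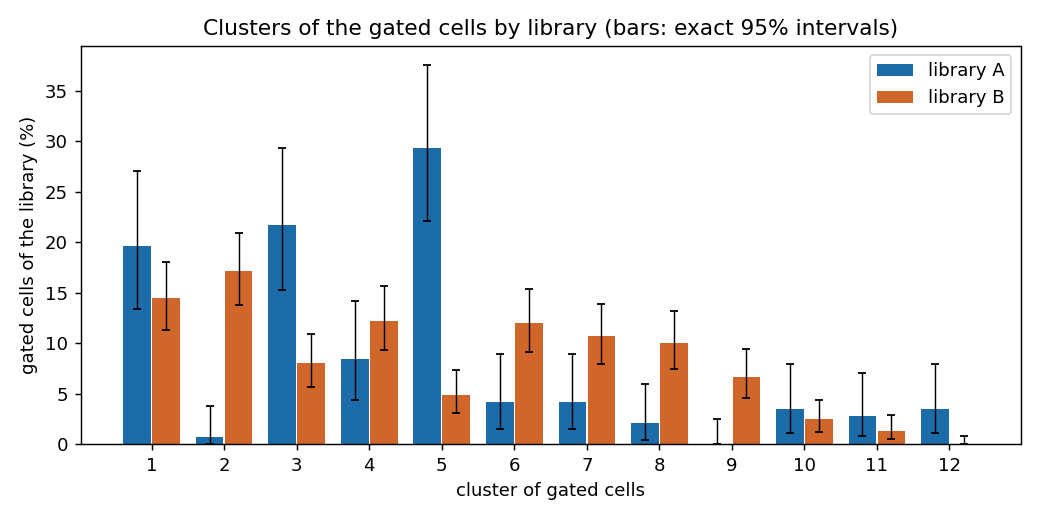
Percentage of each library's gated cells (y axis) in each of the 12 clusters (x axis), blue for library A and orange for library B, with exact 95% binomial intervals that cover counting error only. Cluster 5 held 29.4% of the gated cells of library A and 4.90% of library B, and clusters 2 and 9 were almost wholly cells of library B.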

How the data were processed

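The submitters' processing notes name Cell Ranger; no version is given in the sources used here, nor a genome build. In the deposited matrix, raw UMI counts stand for 14787 cells, with no normalization seen in the values, and the 2 barcode suffixes were taken as the 2 libraries. Of 29816 gene names 21317 had a UMI, and 99.6% of those with a UMI matched RefSeq symbols. Counts were summed over cells by gate and library, giving 4 sums, and tested with edgeR 4.0.16 (quasi-likelihood, TMM, low-count filter, library as a block) in R 4.3.3, with Benjamini-Hochberg adjustment over all genes tested. The labels number the replicates but tie no number to a suffix, and both sums of a library come from the same capture. The fit leaves 1 residual degree of freedom, so the spread is borrowed across genes. DESeq2 1.42.0, scaling without TMM, no low-count filter, no block, other gates, thinning to 1500 UMIs per cell and leaving out cells or a library were tried as alternatives. Clusters were made with scanpy 1.11.5 (1000 variable genes, 20 components, 15 neighbours, Leiden resolution 1). The script was tested on simulated data.

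Named genes were the 15 largest increases and 10 largest decreases among called genes with the same direction in both libraries and at least 50 CPM (UMIs per 1000000) on the higher side in each, the 8 largest each way in the second comparison, and the 8 largest ratios each way between libraries. List members beyond the largest and the uncalled ones, and APOA1, were named after their values were seen. The gated cells and all gene lists were chosen with earlier results of these data known. Of 333 list genes 17 had no UMI. All 17 lie among the 7808 names that close the gene list, none of which had a UMI in any cell, so they were treated as not measured.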

Additional observations from a re-analysis of the deposited data

How the results depend on the processing

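No called gene was called in the opposite direction under any alternative fit. DESeq2 called 1793 genes higher and 787 lower against all other cells, and 240 and 152 against the marker-chosen cells. Without gated cells holding mural or fibroblast markers the first counts were 1724 and 1230, and with thinned cells the second were 237 and 205. A gate at 1 CLDN5 UMI gave shares of 2.47% in library A and 11.6% in library B, a gate at 3 gave 7.65% in library B, and thinning gave 1.20% and 8.05%. HBM was at -0.16 with DESeq2, and at -3.05 and 2.76 within libraries A and B; CFAP43 was at -0.023 and 3.02 there, so neither direction held. The cause of these shifts was not tested. Without the replicate block, which paired the sums of each library, the counts were 2843 and 2162, and 818 and 747. Of 183 named results that DESeq2 gave an adjusted p, 13 lost their call, HBM included. Leaving out the 5 gated cells of cluster 12, chosen after seeing the data, gave 2965 and 2400 in the first comparison, and 5 of 160 named genes gained a call. With 143 and 449 gated cells, genes of a few UMIs are measured poorly, and 2 libraries cannot show how gated shares vary between animals.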
